A study of Saccharomyces cerevisiae with 16 samples.

Results

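The mixed fermentations between 92 h and 187 h were followed in Saccharomyces cerevisiae Lalvin EC1118, an industrial wine yeast. In these fermentations the yeast grew in an artificial must at 22 °C while Dekkera bruxellensis ZIM 701, a spoilage yeast, occupied the far side of a dialysis membrane. The arrays were chosen by their labels alone, as 2 arrays each at 92 h, 144 h and 187 h of mixed fermentation, which are 6 of the 16 arrays of the series. By the labels the cells were in early stationary phase at 92 h, in late stationary phase at 144 h and in an autolytic decline phase at 187 h. RNA came from the S. cerevisiae side only. The remaining arrays were 2 mixed arrays at 22 h and 8 arrays of control fermentations at 22, 92, 144 and 187 h, in which the same strain and must were used and the far side stayed sterile. The labels do not say whether arrays of the same number came from 1 vessel sampled several times. The p-values therefore measure the spread between these samples, which may be partly technical.

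A wine yeast stops dividing well before a fermentation ends and then persists in a medium poor in assimilable nutrients and rich in ethanol. Ribosome production, the costliest synthesis of a growing cell, is known to be reduced in such cells. Genes of respiration and of growth on carbon sources other than glucose are repressed by glucose and become expressed as it runs out, while the heat shock factor Hsf1 drives chaperone genes when proteins misfold. In a late phase dead and lysing cells also contribute to the RNA of a sample, and in bulk RNA a smaller number of cells with a transcript cannot be told apart from less transcript per cell.

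Each array carried 2 spots for each of 6256 gene probes, and 6091 probes were well above background on at least 2 of the 6 mixed arrays and were tested. Levels are given as log2 intensity relative to the array's own 75th percentile, so 0 marks that percentile and a level is compared only with the same probe on another array. Replicates correlated across genes with r = 0.993 at 92 h, 0.991 at 144 h and 0.983 at 187 h. The median SD between the 2 replicates was 0.107, 0.147 and 0.169 log2 at 92, 144 and 187 h. The unscaled 75th percentile was 11.67 and 11.64 log2 at 92 h, 11.66 and 11.39 at 144 h, and 10.48 and 10.89 at 187 h, so the latest arrays were the dimmest. On the first 187 h array the 2 spots of a probe differed by a median of 0.174 log2, against 0.0623 to 0.0831 on the other 5 mixed arrays. Each time had its own column on both slides, so time and place on the slide cannot be told apart.

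Between 92 h and 187 h, 2063 of 6091 genes changed (33.9%), of which 823 were higher at 187 h (13.5%) and 1240 were lower (20.4%). The test was limma's moderated test on the 6 mixed arrays with Benjamini and Hochberg adjustment over all genes, and a gene changed where its adjusted p was under 0.05. With arrays set to their 75th percentile the rises were larger than the falls, with medians of 0.97 and -0.79 log2, and 64 rises but 6 falls passed 2 log2. Without regard to any test, the 187 h and 92 h arrays did not overlap for 4452 genes (73.1%), with 187 h higher for 1744 (28.6%) and lower for 2708 (44.5%), and the unadjusted p of 2858 genes was under 0.05 (46.9%). The count rested on the 92 h arrays, since 122 genes passed without the second of them and 415 without the first, and 1199 passed without the second 187 h array. Without the second 92 h array the respiratory chain, with 8 rises, was the only one of the gene lists described further on that held more than 4 calls in 1 direction. The balance of rises and falls depended on the scaling: 1150 rose and 752 fell when arrays were set to their median, and 157 rose and 1604 fell when they were set to the 7 spike-in probes. Spike-in scaling moved the median over all genes to -0.66, from -0.15 with the 75th percentile, which lowers each difference by 0.51. Its fit had infinite prior degrees of freedom, against 3.62 in the main fit, so all genes shared a common variance. Counts of calls under spike-in scaling therefore reflect that variance as well as the shift. The greater size of the rises therefore depended on the scaling as well. Under spike-in scaling 803 of the 823 rises and all 1240 falls kept their sign. Without any scaling 413 of the rises and all 1240 falls kept it.

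**Figure D1:**
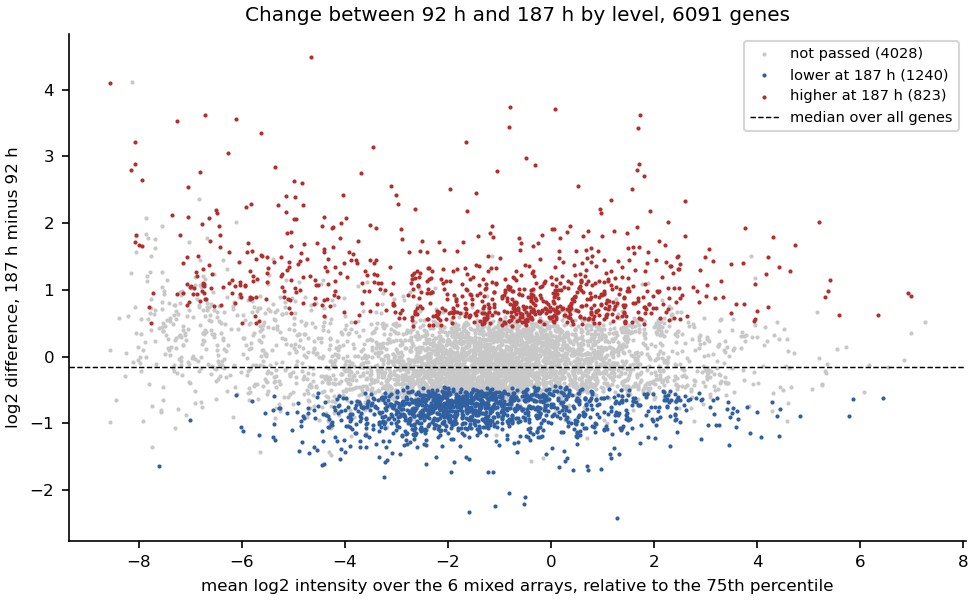
Log2 difference, 187 h minus 92 h, of the 6091 genes tested (vertical axis) against their mean log2 intensity relative to the 75th percentile over the 6 mixed arrays (horizontal axis), with 823 genes that were higher in red and 1240 that were lower in blue. The points above 2 log2 outnumber those below -2, and the dashed line marks the median over all genes of -0.15.

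The largest rises among named genes were in sugar transporter genes, in an NADH dehydrogenase and in protein quality control. HXT15, a hexose transporter family member, stood at -7.95 and -8.14 at 92 h, -5.04 and -6.55 at 144 h, and -3.87 and -5.11 at 187 h. Both arrays were low at 92 h and every later array was higher. The difference of 187 h over 92 h was 3.56 ± 0.55 log2 (SE, adjusted p = 0.00854), an 11.8-fold rise, and the family member HXT16 rose by 3.34 ± 0.36. The 2 genes are near-identical copies, as are HXT13 and HXT17, so which of the 4 rose is uncertain by probe. NDE1, the external NADH dehydrogenase of the mitochondrial inner membrane, stood at -2.54 and -2.95 at 92 h, -0.05 and -0.73 at 144 h, and 0.95 and 0.43 at 187 h. The 3 times did not overlap, and 187 h was 10.8-fold above 92 h (3.43 ± 0.29, adjusted p = 0.00363). ENA2, a sodium efflux pump, stood at -4.89 and -5.29 at 92 h, -3.33 and -3.27 at 144 h, and -1.89 and -2.02 at 187 h, an 8.78-fold rise (adjusted p = 0.00177). Its steps were of similar size, and its neighbour and close copy ENA5 rose by 0.65 ± 0.16.

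ARG3, the ornithine carbamoyltransferase of arginine synthesis, stood at -1.28 and -2.06 at 92 h, -0.32 and -0.55 at 144 h, and 0.91 and 1.50 at 187 h. It climbed at both steps and reached 7.35-fold its 92 h level (adjusted p = 0.00471), and its neighbour SIP4, an activator of gluconeogenic genes, rose by 1.22 ± 0.17. RSC30, a zinc cluster protein of the RSC chromatin remodelling complex, stood at 0.01 and 0.00 at 92 h, 1.30 and 1.94 at 144 h, and 2.92 and 3.93 at 187 h. Every later array exceeded both 92 h arrays, and the rise was 3.42 ± 0.36 log2 (adjusted p = 0.0047). The neighbouring metallothionein gene CUP1-2 rose by 1.14 ± 0.18, and YHR054C, which copies a part of RSC30 in the same repeat, rose by 3.62 ± 0.30. IRC8 rose by 3.22 ± 0.29, and its neighbour MTR4, an RNA helicase of the nuclear exosome, by 2.70 ± 0.15.

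CSM4, which acts in meiotic chromosome movement, was not well above background on either 92 h array and read -6.80 and -6.82 at 144 h and -5.77 and -5.67 at 187 h. It was at least 7.57-fold higher at 187 h than at 92 h (adjusted p = 0.00177), where the bound sets the 187 h mean against the lowest signal that counted as well above background on each 92 h array. By the same bound API2 was at least 6.19-fold higher (adjusted p = 0.0254) and DMO1 at least 4.74-fold higher (adjusted p = 0.0113). API2 was dim on both arrays at 144 h as well, and DMO1 on 1 of them. The other members of the 12 largest rises, BTN2 and FES1, belong to the chaperone list described further on. Among probes named only by an open reading frame, YJL032W had the largest rise at 4.49 ± 0.40 log2, and YNL028W rose by 4.09 ± 0.36. These reading frames were named after their values were seen.

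**Figure D2:**
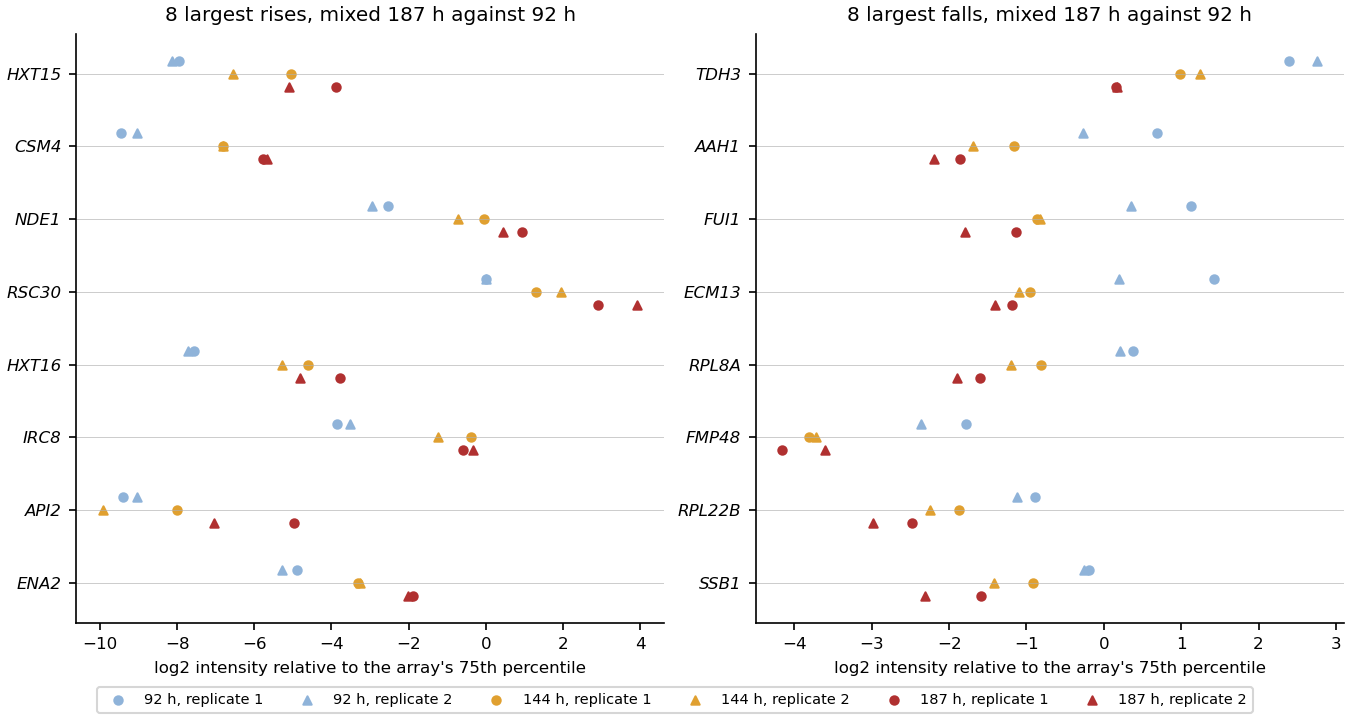
Log2 intensity relative to the array's 75th percentile (horizontal axis) on each of the 6 mixed arrays for the 8 largest rises (left) and 8 largest falls (right) among named genes, coloured by time, with circles for replicate 1 and triangles for replicate 2. For NDE1 and TDH3 the 144 h points lie between those of the other times, while for FMP48 they lie by the 187 h points.

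The largest falls were in a glycolytic enzyme, nucleobase genes, ribosomal proteins and ribosome-bound chaperones. TDH3, the main glyceraldehyde-3-phosphate dehydrogenase, stood at 2.39 and 2.76 at 92 h, 0.99 and 1.25 at 144 h, and 0.15 and 0.17 at 187 h. The times did not overlap, and 92 h lay 5.33-fold above 187 h (-2.41 ± 0.18, adjusted p = 0.00338). AAH1, the adenine deaminase, stood at 0.69 and -0.27 at 92 h, -1.16 and -1.69 at 144 h, and -1.86 and -2.19 at 187 h. Its 92 h arrays were almost 1 log2 apart, yet both lay above every later array (-2.24 ± 0.34, adjusted p = 0.00839). FUI1, the uridine permease, fell by 2.20 ± 0.31, and its neighbour ECM13 fell by 2.10 ± 0.37. FMP48 fell by 1.80 ± 0.26, nearly all of it before 144 h (-1.69). CYB5, the cytochrome b5 of sterol and lipid synthesis, fell by 1.68 ± 0.39, with 92 h arrays at 2.54 and 1.46. Genes of the ribosome and its chaperones, RPL8A, RPL22B, RPS4A, SSB1 and SSB2, were also among the 12 largest falls.

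Respiratory chain genes of the nucleus were higher at 187 h, with 20 of 40 called higher and 0 lower, against 13.5% and 20.4% of all genes. The median over the list was 0.80 log2 (0.96 and 0.65 on the first and second slide), against -0.15 over all genes. The rise lay in electron transport: 11 of 14 genes of the NADH dehydrogenases, complex III and cytochrome c rose (median 1.47), as did 7 of 9 genes of cytochrome c oxidase (median 1.42). Of 17 genes of the ATP synthase and its regulators 2 rose, INH1 and STF1, which are regulators of the enzyme, and the median was 0.17, which turned to a negative value under spike-in scaling by the shift of 0.51 given above. COX4, a cytochrome c oxidase subunit, stood at -0.03 and -0.21 at 92 h, 0.62 and 0.45 at 144 h, and 1.81 and 1.72 at 187 h. The replicates lay close at each time, and the rise was 1.89 ± 0.15 (adjusted p = 0.00338). QCR8, a complex III subunit, stood at 3.46 and 3.40 at 92 h, 4.17 and 4.36 at 144 h, and 4.87 and 4.98 at 187 h, and it climbed by a like amount at both steps (1.50 ± 0.15, adjusted p = 0.0047). CYC1, the major cytochrome c, rose by 2.50 ± 0.44 and CYC7, its minor isoform, by 1.92 ± 0.21. Not passing were NDE2, the second external dehydrogenase (-0.17), and COX5B, the hypoxic subunit whose aerobic counterpart COX5A rose (-0.24 against 1.74). Under spike-in scaling 8 members rose with a median of 0.28, and without the first 92 h array 16 rose.

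Mitochondrially encoded transcripts were all on the positive side of 0, and 3 of 7 rose (42.9%, against 13.5% of all genes) with a median of 0.57. OLI1, a subunit of the ATP synthase ring, stood at 6.62 and 6.67 at 92 h, 6.75 and 6.72 at 144 h, and 7.71 and 7.39 at 187 h. Its first 4 arrays lay within a narrow band and both 187 h arrays above it (0.90 ± 0.16, adjusted p = 0.0113). COX2 (0.76 ± 0.17) and COX3 (0.53 ± 0.15) rose as well, and COX1 differed by 1.50 ± 0.65 without passing (adjusted p = 0.116). The median of the list was -0.10 at the first step and 0.73 at the second. Under spike-in scaling the median was 0.06 and 0 of the 7 rose, and 0 rose without either 92 h array. Mitochondrial ribosomal proteins, encoded in the nucleus, were split, with 8 higher and 5 lower of 74 (10.8% and 6.76%, against 13.5% and 20.4% of all genes). Their median was 0.05 (-0.46 under spike-in scaling). MRPS17 rose by 1.94 ± 0.18 and MRP35 fell by 0.71 ± 0.15.

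The hexose transport and sensing list held 12 rises and 4 falls among 26 genes (46.2% and 15.4%, against 13.5% and 20.4% of all genes), with a median of 0.86. Of the 4 high-affinity transporters HXT2 rose by 1.20 ± 0.14, HXT6 by 0.62 ± 0.16 and HXT7 by 0.63 ± 0.17, and HXT4 fell by 1.09 ± 0.30. HXT6 and HXT7 are near-identical copies. HXT2 stood at -4.41 on both arrays at 92 h, -4.22 and -4.29 at 144 h, and -3.19 and -3.23 at 187 h, so nearly all of its rise came after 144 h. The low-affinity carriers HXT1 (-0.60 ± 0.21) and HXT3 (-0.81 ± 0.43) did not pass. All 11 remaining transporter genes of the list, GAL2 and STL1 among them, had positive differences, 7 of them rose, and their median was 1.81. These probes were dim, with a median level of -7.52 at 92 h, against -1.17 over all genes. Leaving out probes whose 2 spots differed by over 0.5 log2 kept 19 of the 26 list genes, with 10 rises, 4 falls and a median of 0.63. GAL2, the galactose permease, rose by 1.57 ± 0.20. Of the sensors and repressors MTH1, a repressor of HXT genes, rose by 1.22, and MIG1, the glucose repressor, fell by 0.87 ± 0.15, as did the low-affinity glucose sensor RGT2 by 0.58 ± 0.16. HXT13 had the largest difference of the list, 4.12 ± 1.39, but was under background at 92 h and did not pass (adjusted p = 0.0604). Under spike-in scaling 7 members rose and 6 fell, and the counts were 2 and 1 without the second 92 h array and 5 and 0 without the first.

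Of 20 genes of gluconeogenesis and the glyoxylate cycle 8 rose and 2 fell (40.0% and 10.0%, against 13.5% and 20.4% of all genes). Their median of 0.38 turned to -0.13 under spike-in scaling, where 2 rose and 2 fell. ADR1, the activator of ethanol-use genes, stood at -1.38 and -1.57 at 92 h, -0.53 and -0.85 at 144 h, and 0.11 and 0.50 at 187 h. The times did not overlap (1.78 ± 0.20, adjusted p = 0.0053). ADY2, the acetate importer, rose by 1.69 ± 0.19 and JEN1, the lactate importer, by 1.02 ± 0.17. The enzyme genes FBP1 (0.33), PCK1 (0.22), ICL1 (0.46) and MLS1 (0.06) did not pass, and MDH2, the cytosolic malate dehydrogenase, fell by 1.21 ± 0.27. Of 19 citric acid cycle genes 4 rose and 4 fell (21.1% each), the share of falls being near the 20.4% of all genes. Their median was 0.08 (-0.43 under spike-in scaling). CIT3, a mitochondrial citrate and methylcitrate synthase, rose by 1.35 ± 0.16 and SDH1 and SDH2, subunits of succinate dehydrogenase, by 0.67 and 1.19, while SDH3 of the same complex fell by 0.85 ± 0.17.

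Of 42 heat shock chaperones 20 rose and 4 fell (47.6% and 9.52%, against 13.5% and 20.4% of all genes), with a median of 0.54. This list differed from the respiratory genes in its course over time. Its median was -0.01 between 92 h and 144 h and 0.61 between 144 h and 187 h, and its 20 risers had reached a median of 18.2% of their change at 144 h, against 49.1% for all 823 rises. BTN2, a sorting factor for misfolded proteins, stood at -1.14 and -2.16 at 92 h, -1.24 and -1.06 at 144 h, and 0.75 and 1.91 at 187 h. The 92 h and 144 h arrays overlapped and both 187 h arrays lay above them (2.98 ± 0.45, adjusted p = 0.00823). FES1, the nucleotide exchange factor of cytosolic HSP70, stood at 0.68 and 0.28 at 92 h, 0.74 and 1.85 at 144 h, and 3.11 and 3.61 at 187 h. The second 144 h array lay above the first, and both 187 h arrays were higher still (2.88 ± 0.38, adjusted p = 0.0065). APJ1, an HSP40 cochaperone, stood at 0.36 and 0.29 at 92 h, 1.25 and 1.84 at 144 h, and 2.97 and 3.27 at 187 h (2.80 ± 0.23, adjusted p = 0.00338).

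Among the chaperones the classes differed. HSP70 genes and their exchange factors had 5 rises and 1 fall of 7, HSP90 and its partners 6 and 2 of 10, and the mitochondrial chaperones 5 and 0 of 7. HSP78, the mitochondrial disaggregase, rose by 1.67 ± 0.17 and YDJ1, the main cytosolic HSP40, by 1.61 ± 0.18. HSP82, the inducible HSP90, differed by -0.50 at the first step and 1.59 at the second, which summed to a rise of 1.09 ± 0.22. The class of the disaggregase and small heat shock proteins held 1 rise, BTN2, and 1 fall, HSP31, among 11, with a median of -0.13. HSP104, the cytosolic disaggregase (-0.48), HSP26 (-0.49) and HSP12 (-0.33) did not pass. Among HSP70 genes SSA3 fell by 0.75 ± 0.20 while SSA4 rose by 0.78 ± 0.20. Under spike-in scaling 7 of the 42 rose and 5 fell and the median was 0.03. The counts were 3 rises and 0 falls without the second 92 h array and 11 and 0 without the first. Left without the first 187 h array, the one whose paired spots differed most, the list kept 20 rises and 4 falls in number.

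**Figure D3:**
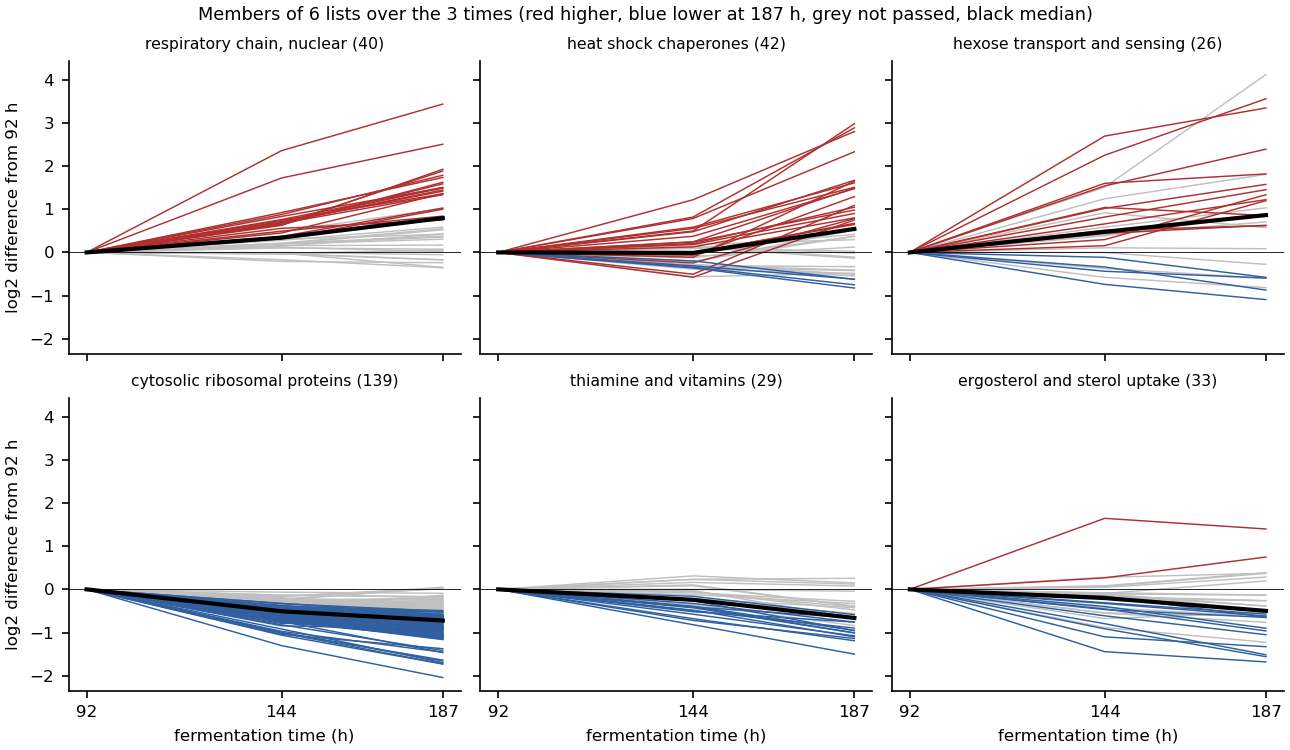
Log2 difference from the 92 h mean (vertical axis) at 92, 144 and 187 h (horizontal axis) for the tested members of 6 lists, each line 1 gene, with genes higher at 187 h in red, lower in blue, not passing in grey and the list median in black. The chaperone median stays near 0 until 144 h and reaches 0.54 at 187 h, while the ribosomal protein median has fallen to -0.51 by 144 h.

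Other parts of protein quality control did not move as a block. Of 46 proteasome genes 3 rose and 7 fell (6.52% and 15.2%, against 13.5% and 20.4% of all genes). Their median was -0.03, and 0.15 with arrays set to their median. RPN4, the activator of proteasome genes, stood at 2.51 and 2.40 at 92 h, 2.79 and 3.37 at 144 h, and 3.70 and 4.06 at 187 h (1.43 ± 0.23, adjusted p = 0.00917). All later arrays exceeded both 92 h arrays. Of 14 genes of the 20S core 0 rose and 2 fell (median -0.21), and of 19 genes of the 19S regulator 2 rose, RPN1 and RPT2, and 1 fell (median 0.20, which spike-in scaling turns negative by its shift of 0.51). The ubiquitin list held 6 rises and 5 falls of 28 (21.4% and 17.9%, median 0.03, and -0.48 under spike-in scaling), with UBI4, the stress-induced polyubiquitin gene, higher by 0.79 ± 0.16. Of 28 genes of ER folding and the unfolded protein response 3 rose and 8 fell (median -0.05, with positive medians of 0.13 with arrays set to their median, 0.08 with quantile normalization and 0.12 with normexp). KAR2, the ER HSP70, rose by 1.23 ± 0.27 and LHS1, its exchange factor, by 1.01 ± 0.22, while CPR5, an ER prolyl isomerase, fell by 1.05 ± 0.16.

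Of the cytosolic ribosomal protein genes 99 of 139 were lower at 187 h and 0 higher, against 20.4% and 13.5% of all genes. Their differences ran between -2.04 and 0.05, 135 were negative, and the median was -0.72 (-0.65 and -0.85 on the first and second slide). Most of the fall was in place at 144 h, with medians of -0.51 for the first step and -0.21 for the second. RPL8A, of the large subunit, stood at 0.38 and 0.21 at 92 h, -0.81 and -1.20 at 144 h, and -1.60 and -1.90 at 187 h. The times did not overlap (-2.04 ± 0.20, adjusted p = 0.0047). RPS9B, of the small subunit, stood at 1.62 and 1.53 at 92 h, 0.58 and 0.55 at 144 h, and 0.10 and -0.23 at 187 h (-1.64 ± 0.17, adjusted p = 0.0047). Many of these genes exist as near-identical pairs, so a single member is uncertain by probe. The count was 61 without the second 187 h array, 18 without the first 92 h array and 4 without the second, with medians of -0.65, -0.71 and -0.69.

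Of 7 ribosome-associated chaperones 4 fell (57.1%), 0 rose and the median was -0.85. SSB2, which binds nascent chains, stood at 1.35 and 1.23 at 92 h, 0.63 and 0.11 at 144 h, and -0.15 and -0.65 at 187 h (-1.69 ± 0.24, adjusted p = 0.0074). Its near-identical copy SSB1 fell by 1.73 ± 0.28, and EGD1, a subunit of the nascent polypeptide-associated complex, by 0.89 ± 0.14. Of 39 translation factors 14 fell and 2 rose (35.9% and 5.13%, median -0.35), with 9 of 14 elongation and termination factors lower and 5 of 25 initiation factors (20.0%), the latter close to the 20.4% of all genes. ANB1, the hypoxic form of eIF5A, fell by 1.20 ± 0.14 and EFT1, elongation factor 2, by 1.34 ± 0.22. Of 100 ribosome biogenesis genes 29 fell and 7 rose (median -0.40), against 20.4% and 13.5% of all genes. With quantile normalization 18 of the 100 fell, beside 1037 of all 6091 genes. On all 8 mixed arrays 19 fell, beside 1309 of 6107 genes. The excess of falls over the share of all genes therefore depended on the processing. UTP13, a member of the small subunit processome, was lower by 1.50 ± 0.22 and IMP4 of the same machinery higher by 0.99 ± 0.16. MTR4, the riser of this list with the smallest p, also acts in RNA decay. Without the first 92 h array 0 of the biogenesis genes fell, without the second 0 fell, and without the second 187 h array 8 fell.

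Glycolytic and fermentative genes held 12 falls and 2 rises among 40, with a median of -0.40 (-0.53 in the control fermentations). Beside TDH3, its close copy TDH2 fell by 1.03 ± 0.16 and ENO2, the glucose-induced enolase, by 0.89 ± 0.14. GPP1, a glycerol phosphatase, fell by 1.22 ± 0.16, and GUT2, the mitochondrial glycerol-3-phosphate dehydrogenase, rose by 1.70 ± 0.34. PDC1, the main pyruvate decarboxylase (0.15), ADH1, the main alcohol dehydrogenase (0.35), and CDC19, pyruvate kinase (-0.16), did not pass. Of 24 genes of trehalose and glycogen 2 rose and 3 fell (8.33% and 12.5%, both below the shares of all genes, median -0.28). TPS3, a regulator of trehalose synthase, fell by 1.04 ± 0.20, GPH1, glycogen phosphorylase, by 0.79 ± 0.20, and SGA1, the glucoamylase of sporulation, rose by 0.78 ± 0.16. Of the glycolytic and fermentative list 1 gene fell without the second 92 h array and 4 without the first.

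The general stress list was split, and the oxidative stress list leaned toward falls. Of 50 general stress genes 11 rose and 8 fell (median -0.11, and 0.06 with arrays set to their median). The share of rises was above the 13.5% of all genes and that of falls below the 20.4%. The balance depended on the scaling: 13 rose and 1 fell with arrays set to their median, and 4 rose and 15 fell under spike-in scaling. HOR7, a small membrane protein of the stress response, stood at 4.41 and 4.11 at 92 h, 4.84 and 5.23 at 144 h, and 6.35 and 6.20 at 187 h. It climbed at both steps (2.01 ± 0.20, adjusted p = 0.0047), as did TMA10, a ribosome-associated stress protein (1.67 ± 0.22). TFS1, an inhibitor of carboxypeptidase Y, fell by 0.79 ± 0.18. The oxidative stress list held 14 falls and 5 rises of 39 (35.9% and 12.8%, median -0.36), the share of rises being near that of all genes. TSA2, a peroxiredoxin, fell by 1.36 ± 0.22, TRR1, thioredoxin reductase, by 0.96 ± 0.16, and GSH2, glutathione synthetase, by 1.06 ± 0.16, while CTA1, the peroxisomal catalase, rose by 1.34 ± 0.15. Of the oxidative stress genes 0 fell without the second 92 h array and 6 without the first. The growth phase markers were mixed as well: of 6 genes known to decline after exponential growth 3 fell and 0 rose (median -0.72), and of 8 known for stationary phase 2 rose and 1 fell (median -0.44).

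The nitrogen and amino acid lists lay near the 13.5% higher and 20.4% lower of all genes. The list for amino acid synthesis held 17 falls and 6 rises of 66 (25.8% and 9.09%, median -0.25), whereas of its 8 arginine genes 3 rose and 0 fell (median 0.41). Beside ARG3 among the rises, the falls included SER2 of serine synthesis (-0.99 ± 0.14) and LEU2 of leucine synthesis (-0.84 ± 0.15). Without either 92 h array 0 of the 66 fell and 1 rose. Of 34 genes under nitrogen catabolite repression 6 rose and 5 fell (17.6% and 14.7%, median -0.03, and 0.15 with arrays set to their median). GDH3, a glutamate dehydrogenase, rose by 1.88 ± 0.28 and MEP3, an ammonium permease, by 1.03 ± 0.14, while DUR3, the urea importer, fell by 0.91 ± 0.14. Of 21 amino acid permeases 3 rose and 4 fell (14.3% higher, median 0.01, and -0.50 under spike-in scaling). PUT4, the proline permease, stood at 2.38 and 1.72 at 92 h, 3.48 and 3.08 at 144 h, and 3.39 and 3.29 at 187 h, so its rise was complete at 144 h (1.29 ± 0.26, adjusted p = 0.0141).

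Among sulfur genes 7 of 27 rose and 4 fell (25.9% and 14.8%, against 13.5% and 20.4% of all genes). Their median was -0.07, with positive medians of 0.11 with arrays set to their median and 0.02 with normexp. STR3, a cystathionine beta-lyase, rose by 1.91 ± 0.17, and the regulators MET32 and MET4 by 1.47 ± 0.15 and 1.10 ± 0.17. The S-adenosylmethionine genes SAM2, SAM4 and SAH1 fell by 0.88, 0.85 and 0.64. Of 17 purine synthesis genes 5 fell and 1 rose (29.4% and 5.88%, median -0.12, and 0.05 with arrays set to their median), with AAH1 described above, ADE16 lower by 0.85 ± 0.15 and ADE8 higher by 0.89 ± 0.15.

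Of 29 vitamin genes 14 were lower (48.3%, against 20.4% of all genes), 0 were higher and the median was -0.66. With quantile normalization 13 were lower and 1 was higher, and with normexp 15 were lower and 1 was higher. Of the 7 biotin and pyridoxine genes 5 fell and all 7 differences were negative. BIO2, biotin synthase, stood at 1.49 and 1.63 at 92 h, 1.14 and 1.02 at 144 h, and 0.52 and 0.41 at 187 h (-1.10 ± 0.15, adjusted p = 0.00675). The biotin importer BIO5 fell by 1.07 ± 0.16 and its neighbour BIO4 by 1.19 ± 0.20. PHO3, the thiamine-repressed acid phosphatase, fell by 1.50 ± 0.22 as 1 of 9 lower among 22 thiamine genes. The count of falls was 0 without the second 92 h array and 5 without the first.

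The ergosterol list, which covers synthesis and import, held 11 falls and 2 rises of 33 (33.3% and 6.06%, against 20.4% and 13.5% of all genes). Its median was -0.50, with -0.74 and -0.25 on the first and second slide. ERG6, the sterol methyltransferase, stood at 1.36 and 0.83 at 92 h, 0.20 and 0.17 at 144 h, and -0.48 and -0.44 at 187 h (-1.56 ± 0.20, adjusted p = 0.00644). The risers were HMG1, the aerobic HMG-CoA reductase (1.40 ± 0.15), and ERG11, the lanosterol demethylase (0.75 ± 0.19). Of 24 seripauperin (PAU) genes, cell wall genes of anaerobic growth, 4 fell (16.7%), a share below the 20.4% of all genes, though all 24 differences were negative and the median was -0.41 (-0.11 in the control fermentations). The PAU genes are near-identical copies and cannot be told apart by probe, and without the first 187 h array their median was -0.12 and 1 fell. Of 10 DAN and TIR cell wall genes 4 fell (40.0%, median -0.70), with TIR4 lower by 1.32 ± 0.16 and TIR1 by 0.68 ± 0.15. The list shares PAU23 (-1.30 ± 0.30) with the PAU list. Of the sterol genes 4 fell without the second 92 h array and 2 without the first.

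**Figure D4:**
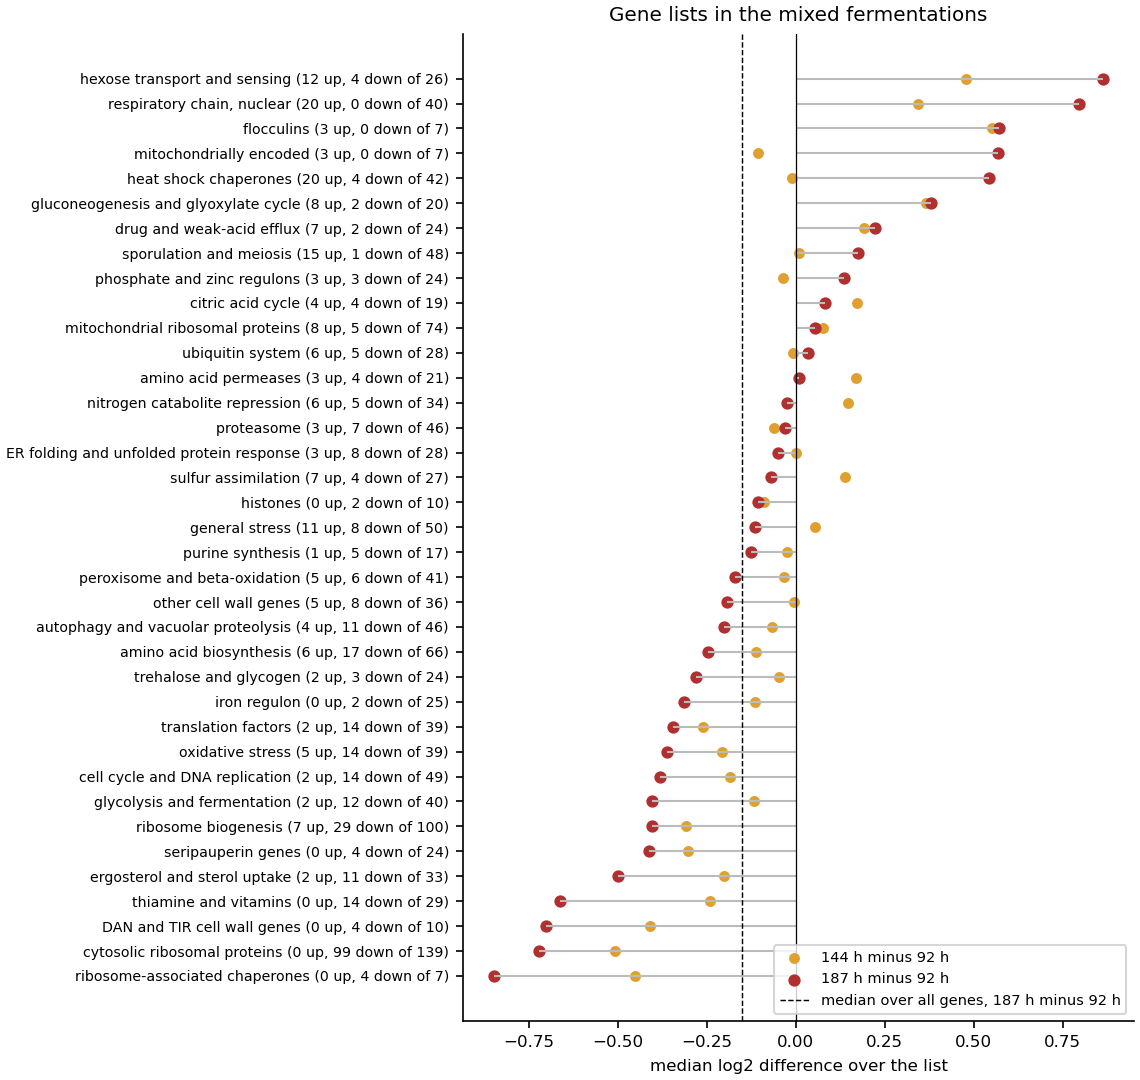
Median log2 difference of the members of each list but the growth phase markers (horizontal axis), 144 h minus 92 h in orange and 187 h minus 92 h in red, with the numbers called higher and lower at 187 h beside each name and the median over all genes as a dashed line. The hexose transport and respiratory chain lists stand at the top, and the ribosome-associated chaperones and cytosolic ribosomal proteins at the bottom.

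The 144 h arrays showed that most changes ran one way. For 1999 of the 2063 changed genes (96.9%) the 144 h mean lay between the 92 h and 187 h means, as it did for 768 of 823 rises (93.3%) and 1231 of 1240 falls (99.3%). Over all 6091 genes the share was 72.6%, and over those that did not change 60.1%. Since the changed genes were chosen by the difference between the end points, a 144 h mean between them is easier to reach for these genes, and no test was made of the share. The order held on both slides separately for 1757 of the 2063 (85.2%), against 43.9% of all genes and 22.8% of those that did not change. At 144 h the changed genes had reached a median of 51.2% of their difference, near the 50.4% over all genes. Among the changed genes outside the range, 28 had a 144 h mean beyond 187 h and 36 beyond 92 h.

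**Figure D5:**
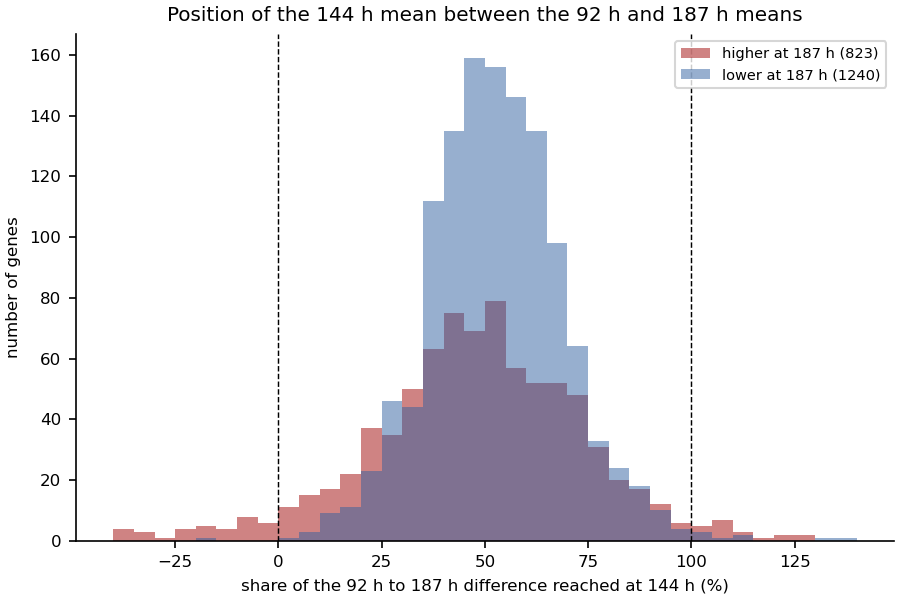
Share of the 92 h to 187 h difference that was reached at 144 h (horizontal axis, in percent, with values beyond the axis set to its ends) for the 823 genes that rose (red) and the 1240 that fell (blue), as numbers of genes. Both distributions centre near the middle, with medians of 49.1% and 52.3%, and the rises are spread more widely.

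Between 92 h and 144 h 9 genes changed (0.148%), all higher at 144 h: MTR4, CSM4, YNR071C, HMG1, ENA2, IRC8, BIL2, FAT3 and CIN8, while 1181 genes had an unadjusted p under 0.05 (19.4%). MTR4 stood at 0.10 and 0.07 at 92 h, 2.61 and 2.52 at 144 h, and 2.69 and 2.87 at 187 h, so 92.0% of its rise was in place at 144 h (first step 2.48 ± 0.15, adjusted p = 0.00681). HMG1 stood at -0.42 and -0.39 at 92 h, 1.32 and 1.15 at 144 h, and 0.98 and 0.99 at 187 h. It was highest at 144 h (first step 1.64 ± 0.15, adjusted p = 0.0216), and its second step of -0.25 did not pass. YNR071C rose by 2.76 ± 0.24 at the first step and is a neighbour of HXT17, which rose by 2.39 ± 0.48 between 92 h and 187 h. FAT3, a protein of fatty acid uptake, rose by 2.11 ± 0.23 and CIN8, a kinesin motor of the mitotic spindle, by 1.47 ± 0.17 at the first step. The 9 calls fell to 0 without either 92 h array or without the first 144 h array, and the count depended on the fit, with 54 genes under a mean-variance trend, 118 with a replicate block and 200 when all 16 arrays were fitted.

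Between 144 h and 187 h 1 gene changed (0.0164%), PXP3, with 1097 genes at an unadjusted p under 0.05 (18%). PXP3 was under background on all 4 arrays at 92 h and 144 h and read -5.93 and -6.55 at 187 h (second step 2.94 ± 0.23, adjusted p = 0.0371). It was at least 5.27-fold higher at 187 h than at 92 h. Other processing gave 0 to 109 genes for this step, so the single call is not stable. A test of the 144 h mean against the midpoint of 92 h and 187 h, added after the data were seen, passed for 0 of 6091 genes (174 at an unadjusted p under 0.05, 2.86%). The chaperones SSA2 (-0.95 ± 0.16, adjusted p = 0.773) and HSP82 (-1.05 ± 0.19, adjusted p = 0.773) were among the genes below the midpoint with small unadjusted p.

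The same interval was measured in the control fermentations. The change between 92 h and 187 h in mixed minus that in control fermentations, fitted on all 16 arrays, passed for 0 of 6125 genes (593 at an unadjusted p under 0.05, 9.68%), and this does not show that the changes were alike. The median of the cytosolic ribosomal proteins was -0.72 in mixed and -0.71 in control fermentations, and that of the respiratory chain 0.80 in mixed and 0.84 in control. The chaperones had medians of 0.54 in mixed and 0.48 in control fermentations, and hexose transport of 0.86 in mixed and 0.87 in control. Other lists lay further apart, with medians of -0.40 in mixed and -0.12 in control fermentations for ribosome biogenesis, and of -0.50 in mixed and -0.13 in control for ergosterol. Nitrogen catabolite repression had medians of -0.03 in mixed and -0.33 in control fermentations, and the citric acid cycle of 0.08 in mixed and -0.12 in control. No test was made of these differences between lists. AGP1, a broad amino acid permease, had the smallest unadjusted p. It stood at 2.88 and 3.50 at 92 h, 4.57 and 4.22 at 144 h, and 4.39 and 4.15 at 187 h in mixed fermentations. Its change was 1.08 in mixed and 2.94 in control fermentations, a difference of -1.86 ± 0.31 (adjusted p = 0.472). KCC4, a bud neck kinase and the neighbour of AGP1, changed by 1.58 in mixed and -0.21 in control fermentations (difference 1.79 ± 0.37, adjusted p = 0.504). The change in mixed minus that in control was also positive, without passing, for SRB7, a Mediator subunit (1.24 ± 0.26), BIL2 (1.38 ± 0.32), SHE1 (1.38 ± 0.32) and CTM1, the cytochrome c methyltransferase (1.09 ± 0.23). It was negative, without passing, for OSW1 of the spore wall (-1.87 ± 0.41), AXL1, a protease of pheromone processing (-0.84 ± 0.19), YML057C-A (-1.37 ± 0.32) and MGM101 of mitochondrial DNA maintenance (-0.62 ± 0.15). HXT16 differed by -2.51 ± 0.66 (adjusted p = 0.504). Without the second 187 h control array 66 genes passed, and without the second 187 h mixed array 10 did.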

How the data were processed

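RNA of S. cerevisiae was hybridised to one-colour Agilent arrays, 200 ng per labelling, per the labels' protocols. The deposited files hold, per the file headers, background-corrected spot intensity values and spot flags from Feature Extraction 10.7.3.1. A deposited table of log2 values, with no stated processing, lay within 0.05 of the log2 intensity plus 1 constant per array for at least 99.58% of probes, and it served as an alternative. Here log2 intensity was averaged over the 2 spots of a probe without the 33 outlier spots of the 6 mixed arrays (0 gene spots were saturated), minus each array's 75th percentile. Probes well above background on at least 2 of a fit's arrays were kept. limma 3.58.1 in R 4.3.3 fitted 1 mean per time on the 6 mixed arrays (3 residual and 3.62 prior degrees of freedom), and the comparison with the controls used all 16 arrays. P-values were adjusted by Benjamini and Hochberg over all genes tested, at 0.05. The number of arrays limits the precision. Tables and plots were made with Python.

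Of the 6256 probe identifiers 5756 matched a RefSeq table of locus tags and symbols of the reference strain, which gave names and neighbours. Its build is not tied to the arrays, so no positions are given. The members, the 38 gene lists and the tests were chosen with earlier results of these data known. Of the listed genes 3 were not in the table, 1 had no probe and 9 failed the filter. Named genes were the 12 largest rises and falls among called genes with a symbol, the same sign in both replicates and signal above background at the brighter time, up to 3 called members per list and direction by smallest p, and the 5 smallest p per direction for the comparison with controls. Other members were named after their values were seen, and some genes that the rule names are not reported here.

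Replicate numbers follow the 2 slides. Deviations of same-numbered arrays from their time means correlated across genes with 0.0808 (92 h and 144 h), 0.0887 (92 h and 187 h) and 0.522 (144 h and 187 h). The numbers were not taken as pairs in the main fit, so deviations shared by the 144 h and 187 h arrays stayed in its spread. With a replicate block 2580 genes changed between 92 h and 187 h, against 2063 without it, and the counts of both steps rose as well. On simulated data of 6091 genes for the comparison of 187 h with 92 h, 50 genes were shifted at each size. The fit called 1 of 50 shifted by 0.5 log2, 30 of 50 shifted by 1, 45 of 50 shifted by 2 and 48 of 50 shifted by 3, and 9 unshifted genes. The shifted genes were a far smaller share than the 33.9% called in the data, and the variances were shuffled among genes. Adjustment is stricter where fewer genes change, so these rates do not carry over to the data. Scaling was varied (array median, quantile, the 7 spike-in probes), as were background correction by normexp with quantile normalization (offset 50), the deposited table, other filters, a mean-variance trend, other sets of arrays, a replicate block, each array left out, and, added after the data were seen, leaving out probes whose 2 spots differed by over 0.5 log2.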

Additional observations from a re-analysis of the deposited data

How the results depend on the processing

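With 1 array left out, 122 to 1899 genes changed between 92 h and 187 h, and 118 to 1852 of them had the 144 h mean between the others. The same ranges were 0 to 16 for 144 h against 92 h, 0 to 77 for 187 h against 144 h, 0 to 0 for the midpoint and 0 to 66 for mixed minus control. The counts of 1902 genes with arrays set to their median, 1951 with quantile normalization, 1761 with spike-in scaling and 2202 with normexp lay within 1.5 times the 2063 reported, as did those of the other settings that left out no single array. The count of 9 for 144 h against 92 h was 24 with arrays set to their median, 29 with quantile normalization, 34 with spike-in scaling, 50 with normexp, 4 with no filter, 30 with probes above background on every array, 54 with a mean-variance trend, 17 on all 8 mixed arrays, 200 on all 16 arrays and 26 without probes whose spots differed. The count of 1 for 187 h against 144 h was 0 with quantile normalization, 18 with spike-in scaling, 49 with normexp, 0 with no filter, 21 with probes above background on every array, 50 with the trend, 0 on 8 arrays, 109 on 16 arrays and 27 without probes whose spots differed. For mixed minus control 1 gene passed under spike-in scaling. With a replicate block 2580 genes changed between 92 h and 187 h, 118 between 92 h and 144 h and 20 between 144 h and 187 h. Of 200 named genes called in the main comparison, 156 no longer passed without the second 92 h array, 108 without the first, 63 under spike-in scaling, 47 without the second 187 h array, 34 without the first and 22 with arrays set to their median, and none turned sign. Relative to all genes the proteasome median turned to -0.02 with normexp. On the same relative scale and with 1 array left out, the seripauperin median ran between -0.617 and 0.0819, and that of the other cell wall genes between -0.0783 and 0.0049. The cause of these shifts was not tested.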

Other observations

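Sporulation and meiosis genes held 15 rises and 1 fall among 48 tested (31.25% and 2.08%, against 13.5% and 20.4% of all genes). Their median was 0.17 (-0.34 under spike-in scaling). SPS1, a kinase of spore wall formation, stood at -4.59 and -4.54 at 92 h, -3.21 and -3.49 at 144 h, and -2.77 and -2.41 at 187 h (1.97 ± 0.19, adjusted p = 0.00449). SPO11, which makes meiotic DNA breaks, rose by 1.52 ± 0.19 and MND1 of meiotic recombination by 1.33 ± 0.16, while IME1, the master inducer of meiosis (-0.37), and NDT80, the activator of middle genes (-0.07), did not pass. The list for the cell cycle and replication held 14 falls and 2 rises of 49 (median -0.38). These were 28.6% and 4.08%, against 20.4% and 13.5% of all genes. RNR2, of ribonucleotide reductase, fell by 1.09 ± 0.18, CLB2, a mitotic cyclin, by 0.87 ± 0.15 and CDC5, the polo kinase, by 0.88 ± 0.15, whereas CDC20, an activator of the anaphase-promoting complex, rose by 0.97 ± 0.24. Of 10 histone genes 2 fell, HTA1 and HTA2 (median -0.11, and 0.07 with arrays set to their median), which at 20.0% is near the 20.4% of all genes.

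Autophagy and vacuolar proteolysis genes held 4 rises and 11 falls among 46 (median -0.20, and 0.01 with quantile normalization). These were 8.70% and 23.9%, against 13.5% and 20.4% of all genes. ATG8, the core autophagosome protein, stood at 1.83 and 1.75 at 92 h, 2.45 and 2.50 at 144 h, and 3.14 and 3.08 at 187 h (1.32 ± 0.14, adjusted p = 0.00471), and ATG1, the initiating kinase, rose by 1.09 ± 0.23. ATG12 fell by 1.14 ± 0.15 and the vacuolar aminopeptidases APE1 and APE3 by 0.77 and 0.83. The vacuolar hydrolases and inhibitors held 0 rises and 5 falls among 15. Peroxisomal genes held 5 rises and 6 falls among 41 (12.2% and 14.6%, median -0.17, and 0.03 with quantile normalization). Of 7 flocculins 3 rose (42.9%) and 0 fell (median 0.57), FLO5 by 0.97 ± 0.26, FLO11 by 1.01 ± 0.27 and FLO10 by 0.57 ± 0.17. These rises became 0 when any 1 of the 92 h or 187 h arrays was left out, and under spike-in scaling 0 rose and the median was 0.06. Of 36 other cell wall genes 5 rose and 8 fell (13.9% and 22.2%, near the shares of all genes, median -0.19). Among them SPI1, a wall protein of the weak-acid response, was higher by 1.40 ± 0.19 and DSE2 of daughter cell separation lower by 0.98 ± 0.20. The drug and weak-acid efflux list held 7 rises and 2 falls of 24 (29.2% and 8.33%, median 0.22, and -0.29 under spike-in scaling), with TPO2, a polyamine exporter, higher by 1.39 ± 0.23. Of 24 phosphate and zinc genes 3 rose and 3 fell (12.5% each), the share of rises being near the 13.5% of all genes. Their median was 0.14, and -0.38 under spike-in scaling. PHO84, the high-affinity phosphate importer, rose by 1.42 ± 0.22. Of 25 iron genes 0 rose and 2 fell (8.0%, below the share of all genes), FRE1 and FET4 (median -0.31).

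Probes whose identifiers had no entry in the annotation table rose more often than the others. Of 416 such probes 29.1% were higher at 187 h and 5.77% lower, against 12.4% and 21.4% of the 5675 with an entry. Their median level was -5.49, against -1.12 for the others. With all genes split by mean level into 5 equal bins, 17.8% rose and 16.2% fell in the dimmest, 7.47% rose and 30.0% fell in the next, and 19.5% rose and 17.1% fell in the brightest. The part of level in these shares was not tested.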
